A study of Homo sapiens with 15 samples.

Results

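The genes described here are the protein-coding genes of human chromosome 13 that BEAS-2B cells expressed during exposure to nanoplastics of polyethylene terephthalate (PET-NPLs). They were selected on position and on their own read counts: a row of the count table had to be a protein-coding gene of chromosome 13 in GRCh38 and to reach 10 raw counts in at least 7 of the 15 samples, and RB1 as well as symbols starting with COL, RPL, RPS, NDUF or ATP5 were set aside. Of 28395 rows in the table, 613 lay on chromosome 13 and 316 of these were protein-coding; 4 were set aside by symbol, 86 did not reach the counts, and 226 members remained. The chromosome itself was selected with its median change at 30 weeks already known, so that the chromosome-wide values below are descriptions without a test. F10, POSTN and RGCC were just inside the limit, each with 10 counts in 8 samples, and SERP2 and SLITRK6 were just outside it, each in 6 samples.

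BEAS-2B is an established line of immortalised human bronchial epithelial cells. Untreated cells of the same passage served as controls, and exposed cells received 50 µg/mL for 24 h, 15 weeks or 30 weeks. Controls and exposed cells were each sequenced in 2 samples at 24 h and in 2 at 15 weeks, while 30 weeks had 3 controls and 4 exposed samples. All cultures came from this 1 line, and by the labels batch 1 held every sample of the earlier time points and batch 2 those of 30 weeks, so that exposure is compared within a batch whereas the step from 15 to 30 weeks and the batch cannot be told apart. No source says that replicates of a group were separate long-term cultures, and p-values therefore measure the spread between these samples, which may be technical.

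Chromosome 13 is one of the acrocentric chromosomes, whose short arm carries ribosomal RNA repeats while the protein-coding genes sit on the long arm. Immortalised lines often carry extra or missing chromosomes, and the RNA of many genes on such a chromosome tends to follow the number of its copies. DNA copy number was not measured in these samples. The members hold no single pathway: they include chromatin proteins and transcription factors, proteins of mitosis and DNA repair, RNA export and import factors, ubiquitin ligases and chaperones, flippases, channels and adhesion receptors.

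Libraries held 23143202 to 31459990 counts. The members took 1.20% to 1.26% of all counts at 24 h, 1.48% to 1.62% at 15 weeks, 0.676% to 0.921% in the 30-week controls and 1.01% to 1.25% in exposed cells at 30 weeks. Over the same groups, 6 abundant small noncoding RNAs took 12.1% to 12.9%, 9.75% to 11.4%, 22.3% to 31.0% and 17.0% to 21.5%. Levels below are therefore CPM scaled by TMM, which allows for unequal composition of the libraries, and changes are log2 fold changes of edgeR's quasi-likelihood model over 16740 genes, all 226 members included. A gene was called when its p-value, adjusted after Benjamini and Hochberg over all 16740 genes, was under 0.05. Spread was estimated over all 15 samples together, so that a p-value at 1 time point also rests on the spread at the others. In this fit 0 genes were called for exposure at 15 weeks and 3961 at 30 weeks. With each time point fitted alone, these numbers were 304 and 2370. Among the 30-week samples, exposed replicate 2 stood apart from its group: its log2 CPM correlated across genes with those of the other exposed samples at 0.976 to 0.981, whereas those samples correlated with each other at 0.991 or 0.992. Of 14 markers of bronchial epithelium, between 4 and 6 reached a mean of 1 CPM in any group, and EPCAM stayed under it in every group. The summed CPM of these markers was 2000 to 2300 in the 24 h controls, 854 to 899 in the 15-week controls, 324 to 419 in the 30-week controls and 883 to 1100.0 in exposed cells at 30 weeks. The lower sum at 15 weeks was mainly that of KRT7, with a mean of 1310 CPM in the 24 h and 18 CPM in the 15-week controls. KRT8 was at 482 and 545 CPM there, and KRT18 at 333 and 310 CPM. The summed CPM of 14 skeletal muscle markers was 325 to 417 in the 30-week controls against 32.2 to 44.5 in exposed cells at 30 weeks and 17.4 to 42.9 earlier, and 2 of them were at 0 throughout. Markers of blood summed to at most 0.383 CPM in any library, with 2 of 5 at 0, and the 3 endothelial markers to at most 2.90 CPM. These values move with the 30-week comparison, and their part in the changes of the members was not tested. In bulk RNA, fewer cells that express a gene and less RNA per cell cannot be told apart.

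As a group, the members lay higher at 15 weeks than at 24 h and lower at 30 than at 15 weeks, in control as well as in exposed cells. The step from 15 to 30 weeks also crosses the batches, and time and batch cannot be told apart in it. At 15 and 30 weeks the members lay higher in exposed than in control cells. The fall from 15 to 30 weeks was smaller beside genes of like GC content: with their median change subtracted, as described below, the members' median for this step was -0.32 in controls and -0.09 in exposed cells, where 46.2% of members were positive. The median of the members, as the log2 difference from the mean of the 24 h controls, was -0.02 and 0.02 in the 24 h controls and -0.02 and -0.03 in cells exposed for 24 h. It was 0.23 and 0.18 in the 15-week controls and 0.33 and 0.31 in exposed cells at 15 weeks. It was -0.55, -0.29 and -0.54 in the 30-week controls and -0.24, 0.08, -0.22 and -0.19 in exposed cells at 30 weeks. The exposed samples thus lay above all controls of their time point at 15 and at 30 weeks and below the mean of the controls at 24 h. The single exposed sample above 0 at 30 weeks is replicate 2, the library that stood apart. The median of all genes tested stayed within -0.03 and 0.06 in every sample. The shift was far from equal among members: in the first 30-week control the quartiles of the members were -1.14 and 0.23, and 30.1% of them lay above the 24 h controls. Such a spread was not particular to the members. From 15-week to 30-week controls their quartiles lay 0.95 apart on the log2 scale, against 0.90 (chromosome 22) to 1.38 (X chromosome) on the other chromosomes. The set was first described as a dosage-like shift; the values show a shift of the median that was unequal among the members, and gene dosage itself was not measured.

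**Figure D1:**
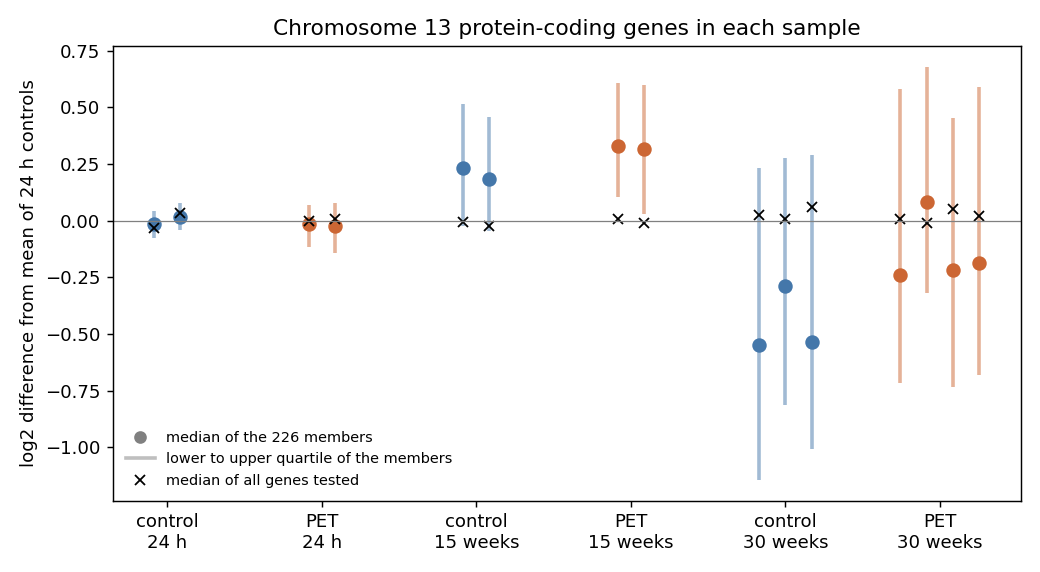
Each point is the median log2 difference of the 226 members from the mean of the 24 h controls in 1 sample, the bar spans their quartiles, and the cross is the median of all genes tested (blue, control; orange, exposed). The points rise to between 0.18 and 0.33 at 15 weeks and lie between -0.55 and 0.08 at 30 weeks, where the bars are widest, while the crosses stay near 0.

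After 24 h of exposure, chromosome 13 genes were near the level of the controls. The members' median log2 fold change was -0.03 (quartiles -0.12 and 0.05), 88 of 226 were positive, and none was called, like the 0% of all genes tested. Without adjustment, 3 members had p under 0.05, among 277 of all genes. In 27 members (11.9%) both exposed samples lay above both controls, and in 38 (16.8%) both lay below, against 12.9% and 13.1% of all genes. Expression of HMGB1, a DNA-bending protein of chromatin, was 313 and 361 CPM in controls and 323 and 234 CPM in exposed cells, so that the groups overlapped. For SHISA2, which restrains the maturation of FGF and Wnt receptors, the levels were 58.1 and 66.1 CPM and 58.6 and 52.9 CPM, and for NALCN, the sodium leak channel, 18.3 and 16.6 CPM and 18.7 and 16.8 CPM.

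After 15 weeks, most members were slightly higher in exposed cells, but none by enough to be called. Their median log2 fold change was 0.09 (quartiles -0.03 and 0.21), or 1.07-fold, and 158 of 226 (69.9%) were positive, against 50.9% of all genes. In edgeR's quasi-likelihood test no member was called, like the 0% of all genes tested; the smallest adjusted p of a member was 0.414, and 18 members had an unadjusted p under 0.05. In DESeq2 1 member was called, beside 0.122% of all genes, in limma-voom with surrogate variables none, beside 0%, and in edgeR fitted to the 4 samples of 15 weeks alone 9, beside 1.96%. In 94 members (41.6%) both exposed samples lay above both controls, against 23.4% of all genes, and in 20 (8.85%) both lay below, against 22%. After subtracting the median change of other protein-coding genes of like GC content, the members' median was 0.04 in place of 0.09.

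Single genes at 15 weeks differed in size and direction, and those below were not called. MBNL2, a regulator of alternative splicing, had 132 and 128 CPM in controls and 177 and 206 CPM in exposed cells (log2 0.56, SE 0.225, adjusted p = 0.949 by edgeR). HSPH1, a heat shock protein of the HSP110 family, had 429 and 436 CPM and 470.5 and 504 CPM, with a log2 fold change of 0.17 (SE 0.182). The exposed samples were the higher ones for both genes, without overlap. PCDH9, a protocadherin of cell adhesion, went the other way, with 1.52 and 1.5 CPM in controls and 0.217 and 0.519 CPM in exposed cells and a log2 fold change of -2.03 (SE 0.441, adjusted p = 0.414) in edgeR's test. GPC6, a glypican that carries heparan sulfate on the cell surface, had 2.69 and 2.6 CPM and 1.27 and 1.4 CPM (log2 -0.98, SE 0.326, adjusted p = 0.815 by edgeR). PCDH9 and GPC6 were also the lower ones in exposed cells at 30 weeks, as given below.

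After 30 weeks, most chromosome 13 genes were higher in exposed than in control cells, and 11 were called lower, among them SHISA2, PCDH9 and ATP8A2. Their median log2 fold change was 0.35 (quartiles 0.11 and 0.54), or 1.28-fold, and 187 of 226 members (82.7%) were positive, against 50.8% of all genes. In edgeR's test 83 members (36.7%) rose and 11 (4.87%) fell, beside 12% and 11.7% of all genes tested in each direction. In 88 members all 4 exposed samples lay above all 3 controls and in 12 they lay below, beside 14.3% and 13% of all genes. These shares are given for description, since the chromosome was selected on this contrast. The median was 0.28 without exposed replicate 2 and up to 0.40 without control replicate 2. Without exposed replicate 2, 88 members rose and 19 fell, beside 16.2% and 18% of all genes. Without control replicate 1, 52 rose and 8 fell, beside 7.9% and 7.04% of all genes, so that the calls over all genes moved as well. With only the 30-week samples in the fit 45 rose, beside 7.41% of all genes. The members that were measured with at least 10 counts in all 15 samples numbered 201, and 7 of these fell. The study's question at this time point is which genes change in cells that have been exposed for long enough to show features of transformation.

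The spread of the fold changes at 30 weeks was at the low end of that of the other chromosomes. The quartiles of the members were 0.43 apart on the log2 scale, and those of the protein-coding genes of the other 22 chromosomes 0.43 to 0.67 apart. The sets are unlike: the 226 members passed the count rule, out of 243 protein-coding genes of chromosome 13 tested. The other chromosomes kept all their genes tested. Members of all 7 role lists had positive medians, between 0.24 and 0.48. The medians and counts by role are a description, since each list inherits the selection of the chromosome. The lists are broad, and a place in one is no proof of that role: the lysosomal glycoprotein LAMP1 stands under ubiquitin, folding and peptidases. Counts of each list stand beside the 12% of all genes called higher and the 11.7% called lower at 30 weeks.

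**Figure D2:**
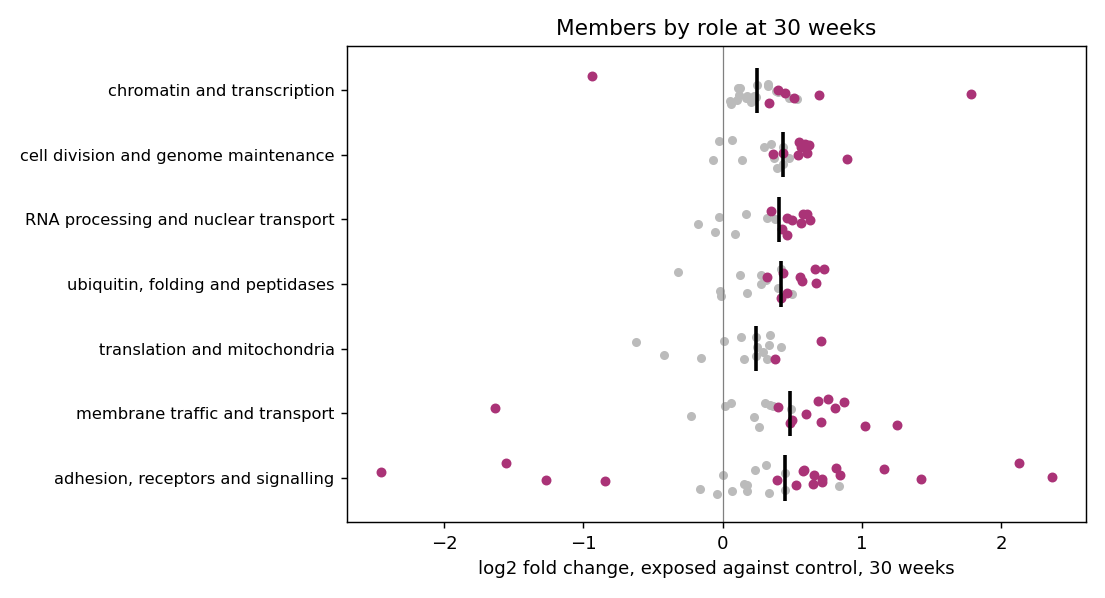
Each point is a member of 1 of 7 role lists, placed at its log2 fold change of exposed against control cells at 30 weeks; purple points were called by edgeR (adjusted p under 0.05), grey ones were not, and the black bar is the list's median. The medians lie between 0.24 and 0.48, and the points farthest to the left belong to adhesion, receptors and signalling, membrane traffic and transport, and chromatin and transcription.

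Among 25 members listed under chromatin and transcription, 6 rose, 1 fell and 18 were not called (median log2 fold change 0.24). FOXO1, a forkhead transcription factor that insulin signalling keeps out of the nucleus, had 1.81, 2.92 and 2.76 CPM in the 30-week controls and 9.56, 6.24, 8.34 and 10.4 CPM in exposed cells. All exposed samples were above all controls, and the gene rose 3.44-fold, a log2 fold change of 1.78 (SE 0.212, adjusted p = 1.45e-05) in edgeR's test. At 15 weeks its levels were 6.16 and 6.43 CPM in controls and 7.2 and 8.34 CPM in exposed cells, so that the 30-week controls were the low group. TFDP1, the partner with which E2F factors bind DNA, had 142, 154 and 152 CPM in the 30-week controls and 266, 196, 248 and 259.6 CPM in exposed cells and rose 1.62-fold (log2 0.69, SE 0.119, adjusted p = 0.000505 by edgeR). SETDB2, MPHOSPH8, SMAD9 and ZC3H13 were the other members of the list that rose, with log2 fold changes of 0.45, 0.51, 0.33 and 0.39. KLF5, a Krüppel-like factor of epithelial growth, was the 1 that fell: it had 24.5, 29.1 and 30.6 CPM in the 30-week controls and 14.1, 10.5, 14.9 and 19 CPM in exposed cells (log2 -0.94, SE 0.167, adjusted p = 0.000679 by edgeR). HMGB1 had 131, 145 and 119.9 CPM in the 30-week controls and 118, 254, 139 and 148 CPM in exposed cells. Its groups overlapped, exposed replicate 2 being the highest and the others, at 118 to 148 CPM, close to the range of the controls (log2 0.32, SE 0.214). ZMYM2, a zinc finger protein of corepressor complexes, likewise overlapped, with a log2 fold change of 0.12 (SE 0.124).

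Of 20 members listed under cell division and genome maintenance, 9 rose, none fell and 11 were not called (median 0.43). CUL4A, the scaffold of a ubiquitin ligase that works at damaged DNA and at replication, had 80.8, 101 and 86 CPM in the 30-week controls and 143, 143, 140.3 and 123 CPM in exposed cells. It rose 1.54-fold, without overlap (log2 0.62, SE 0.109, adjusted p = 0.000641 by edgeR). PARP4, the ADP-ribosylating enzyme of vault particles, had 77.9, 101 and 94.3 CPM in the 30-week controls and 143, 137, 131 and 124 CPM in exposed cells and rose 1.47-fold (log2 0.56, SE 0.11, adjusted p = 0.00153 by edgeR). CKAP2, a protein of spindle microtubules, had 97.8, 138 and 113 CPM in the 30-week controls and 155, 212, 145 and 165 CPM in exposed cells. It rose as well, by a log2 fold change of 0.54 (SE 0.144, adjusted p = 0.0126), and was not called in 3 of 26 alternatives, among them the one without control replicate 1. CDC16 of the anaphase-promoting complex (log2 0.59), BORA, an activator of Aurora A (0.60), the cohesin regulator PDS5B (0.55), the katanin-like protein KATNAL1 (0.89), the formin DIAPH3 (0.44) and the Hippo kinase LATS2 (0.36) rose too. In LATS2 the groups overlapped, and its call was close to the threshold (adjusted p = 0.0484 by edgeR). The DNA ligase LIG4, the replication factor subunit RFC3 and the repair nuclease ERCC5 were not called, at 0.43, 0.37 and 0.35.

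Of 16 members listed under RNA processing and nuclear transport, 9 rose, none fell and 7 were not called (median 0.40). IPO5, an importin that carries ribosomal proteins and histones into the nucleus, had 238, 269 and 236 CPM in the 30-week controls and 337, 443, 294 and 294 CPM in exposed cells and rose 1.38-fold (log2 0.46, SE 0.14, adjusted p = 0.0248 by edgeR). The gene was not called in 4 of 26 alternatives, among them those without control replicate 1 or 3. MBNL2 had 60.6, 79.5 and 59.9 CPM in the 30-week controls and 82.2, 132, 89.2 and 90.9 CPM in exposed cells and rose 1.48-fold, with an adjusted p of 0.0279 by edgeR (0.122 without control replicate 1 and 0.0891 without control replicate 3). XPO4, KPNA3, DIS3, PAN3, RBM26, GPALPP1 and UTP14C were the others that rose, with log2 fold changes from 0.35 to 0.62. SAP18, of the Sin3 and exon junction complexes, was not called: it had 147, 127 and 86 CPM in the 30-week controls and 77.9, 171, 101 and 74.3 CPM in exposed cells, and its lowest and highest levels were both in exposed samples. Without exposed replicate 2, the highest, SAP18 was called lower (log2 -0.51, adjusted p = 0.0173 by edgeR).

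Of 21 members in ubiquitin, folding and peptidases, 9 rose, none fell and 12 were not called (median 0.42). HSPH1 had 135, 155 and 132 CPM in the 30-week controls and 232, 299.5, 187 and 212 CPM in exposed cells, rose 1.65-fold (log2 0.72, SE 0.142, adjusted p = 0.00149 by edgeR) and was higher in each exposed sample than in each control. Its co-members RNF6, a RING ubiquitin ligase, TPP2, a giant peptidase, DNAJC3, an inhibitor of the kinase PERK, and USPL1, a SUMO isopeptidase, rose by log2 fold changes of 0.66, 0.67, 0.56 and 0.57. The groups overlapped in USPL1 (adjusted p = 0.0309 by edgeR). LAMP1, a glycoprotein of the lysosomal membrane, had 220.4, 200.1 and 228 CPM in the 30-week controls and 273, 249, 269 and 286 CPM in exposed cells, and MYCBP2, a large ubiquitin ligase, had 55.1, 78.1 and 82.1 CPM in the 30-week controls and 102, 104, 82.7 and 98.3 CPM in exposed cells. Both rose without overlap, by 0.32 (SE 0.106, adjusted p = 0.04) and 0.43 (SE 0.145, adjusted p = 0.0421) on the log2 scale in edgeR's test. These calls were near the threshold, and LAMP1 was not called in 17 and MYCBP2 in 13 of 26 alternatives.

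Of 16 members of translation and mitochondria, 2 rose, none fell and 14 were not called (median 0.24). The share that rose was near the 12% of all genes. The 2 were the carriers SLC25A15, which moves ornithine into mitochondria, and SLC25A30, at log2 fold changes of 0.38 and 0.70. TPT1, the translationally controlled tumour protein, had 1165, 1264 and 921 CPM in the 30-week controls and 832, 1680.0, 1176 and 798 CPM in exposed cells and a log2 fold change of 0.01 (SE 0.213), whose sign turned in 8 of 26 alternatives. CARS2, the mitochondrial cysteinyl-tRNA synthetase, had 136, 145 and 132 CPM in the 30-week controls and 150.3, 158, 152 and 149.7 CPM in exposed cells (log2 0.15, SE 0.0927). The 4 exposed samples lay above the 3 controls, but the difference was not called (adjusted p = 0.268 by edgeR). MRPL57, of the large subunit of mitochondrial ribosomes, had 175, 158 and 111 CPM in the 30-week controls and 87.7, 139, 112 and 103 CPM in exposed cells, with overlap and a log2 fold change of -0.42 (adjusted p = 0.0715 by edgeR). MRPL57 was called lower without exposed replicate 2 (log2 -0.56, adjusted p = 0.00495) and without control replicate 3 (log2 -0.59, adjusted p = 0.0137), both by edgeR.

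Of 21 members of membrane traffic and transport, 11 rose, 1 fell and 9 were not called (median 0.48). The copper pump ATP7B (log2 0.70), the flippase ATP11A (0.87), the ESCRT protein VPS36 (0.81), the small GTPase RAB20 (1.02) and the arginine transporter SLC7A1 (0.48) were among those that rose. In SLC7A1 the groups overlapped, and the call was near the threshold (adjusted p = 0.0421 by edgeR). SLC9D1 had 91.2, 118 and 113 CPM in the 30-week controls and 164, 141, 178 and 167 CPM in exposed cells and rose 1.51-fold (log2 0.60, SE 0.117, adjusted p = 0.00148 by edgeR). TM9SF2, a membrane protein of endosomes and Golgi, had 176, 189 and 145 CPM in the 30-week controls and 183, 293, 186 and 197 CPM in exposed cells. In it exposed replicate 2 was far above the other exposed samples, 2 of which lay within the range of the controls, and the gene was not called (log2 0.34, SE 0.16). ZDHHC20, a palmitoyltransferase, overlapped likewise and was not called (log2 0.26, SE 0.177). The 1 that fell was ATP8A2, a flippase of aminophospholipids, described with the largest changes below.

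Of 31 members of adhesion, receptors and signalling, 14 rose, 4 fell and 13 were not called (median 0.45). GAS6, the ligand of the TAM receptor kinases, had 72, 49.8 and 56.1 CPM in the 30-week controls and 101, 104, 93.2 and 90 CPM in exposed cells and rose 1.64-fold (log2 0.71, SE 0.125, adjusted p = 0.000591 by edgeR). Its level had been 226 and 251 CPM in the 24 h controls, so that all later samples were below the first ones. STK24, a kinase of the Ste20 family, had 87.5, 85.6 and 91.4 CPM in the 30-week controls and 157, 105, 137 and 154 CPM in exposed cells and rose 1.57-fold (log2 0.65, SE 0.128, adjusted p = 0.00163 by edgeR). EFNB2, a ligand of Eph receptors, had 1.25, 1.12 and 1.29 CPM in the 30-week controls and 2.61, 3.92, 2.23 and 2.11 CPM in exposed cells and rose 2.23-fold (log2 1.16, SE 0.247, adjusted p = 0.00294 by edgeR). FGF14, an intracellular FGF that binds sodium channels, had 1.98, 1.88 and 2.22 CPM in the 30-week controls and 2.79, 3.54, 3.41 and 3.52 CPM in exposed cells and rose 1.63-fold. The 4 that fell were PCDH9, GPC6, TNFRSF19 and DCLK1, with log2 fold changes of -2.45, -1.56, -1.27 and -0.85. In DCLK1 exposed replicate 2, at 10.4 CPM, lay within the range of the controls. The 76 members outside the 7 lists had 22 that rose and 5 that fell, with a median of 0.33.

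The largest called rises among members with at least 1 CPM on average at 30 weeks and no overlap of the groups were in LCP1, NALCN, FOXO1, TRPC4, EPSTI1 and LACC1. LCP1 encodes L-plastin, which bundles actin filaments, and had 0.516, 0.794 and 0.608 CPM in the 30-week controls and 3.58, 3.19, 1.77 and 2.75 CPM in exposed cells. It rose 4.36-fold (log2 2.13, SE 0.329, adjusted p = 0.000201 by edgeR) from levels that correspond to few counts. NALCN had 1.98, 3 and 1.57 CPM in the 30-week controls and 8.26, 9.11, 8.41 and 7.43 CPM in exposed cells and rose 3.79-fold (log2 1.92, SE 0.186, adjusted p = 1.43e-06 by edgeR). Its level was 18.3 and 16.6 CPM in the 24 h controls and 11.7 and 11.7 CPM in the 15-week controls, so that every 30-week sample lay below every earlier sample and the controls lay lowest. EPSTI1, an interferon-responsive gene, had 3.4, 6.17 and 4.83 CPM in the 30-week controls and 11.8, 13.3, 12.7 and 13.3 CPM in exposed cells and rose 2.65-fold (log2 1.41, SE 0.162, adjusted p = 1.01e-05 by edgeR), after 17.3 and 17.1 CPM in the 15-week controls. TRPC4, a cation channel, had 1.29, 1.08 and 0.752 CPM in the 30-week controls and 2.75, 4.8, 2.36 and 1.97 CPM in exposed cells and rose 2.86-fold (log2 1.52, SE 0.333, adjusted p = 0.00354 by edgeR). LACC1, an enzyme of purine metabolism known from macrophages, had 1.85, 2.78 and 2.47 CPM in the 30-week controls and 4.56, 8.27, 5.63 and 5.42 CPM in exposed cells and rose 2.51-fold, after 9.52 and 10.8 CPM in exposed cells at 15 weeks. MEDAG, outside the naming rule for its low level and named after its values were seen, had 1, 7 and 1 counts in the 30-week controls and 22 to 40 counts in the exposed samples.

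At the same level and without overlap, the largest falls were in SHISA2, RGCC, ATP8A2, GPC6, TNFRSF19 and KLF5, and in these genes the 30-week controls lay above the 15-week controls or overlapped them. SHISA2 had 172, 144 and 131 CPM in the 30-week controls and 21.6, 28.4, 22.7 and 17.9 CPM in exposed cells. At 15 weeks it had 49.6 and 55.2 CPM in controls and 49.6 and 53.5 CPM in exposed cells. The 30-week controls were thus higher and the exposed cells lower than any earlier sample, and the gene fell to 0.152 of the control level (log2 -2.72, SE 0.146, adjusted p = 2.82e-09 by edgeR), the strongest call of all members. ATP8A2 had 12, 11.4 and 9.38 CPM in the 30-week controls and 3.33, 4.55, 3.55 and 2.64 CPM in exposed cells and fell to 0.323 of the control level (log2 -1.63, SE 0.187, adjusted p = 9.72e-06 by edgeR). RGCC, a regulator of the cell cycle, had 1.89, 2.24 and 1.04 CPM in the 30-week controls and 0.507, 0.561, 0.487 and 0.599 CPM in exposed cells and fell to 0.315 (adjusted p = 0.00338 by edgeR). GPC6 had 2.32, 4.37 and 3.01 CPM in the 30-week controls and 0.688, 1.65, 0.904 and 1.16 CPM in exposed cells and fell to 0.34 (log2 -1.56, SE 0.253, adjusted p = 0.00031 by edgeR), after 14.1 and 14.6 CPM in the 24 h controls. TNFRSF19, a receptor of the TNF receptor family, had 32.4, 33 and 35.1 CPM in the 30-week controls and 14.6, 10.8, 15.4 and 14.8 CPM in exposed cells and fell to 0.415 (log2 -1.27, SE 0.148, adjusted p = 1.19e-05 by edgeR). PCDH9 had 1.33, 1.8 and 1.97 CPM in the 30-week controls and 0.181, 0.491, 0.139 and 0.422 CPM in exposed cells and fell to 0.183 (log2 -2.45, SE 0.345, adjusted p = 7.88e-05 by edgeR), at a mean below the limit of the naming rule for these samples. The naming rule required that no exposed sample reach the lowest control, and the same held in PCDH9.

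**Figure D3:**
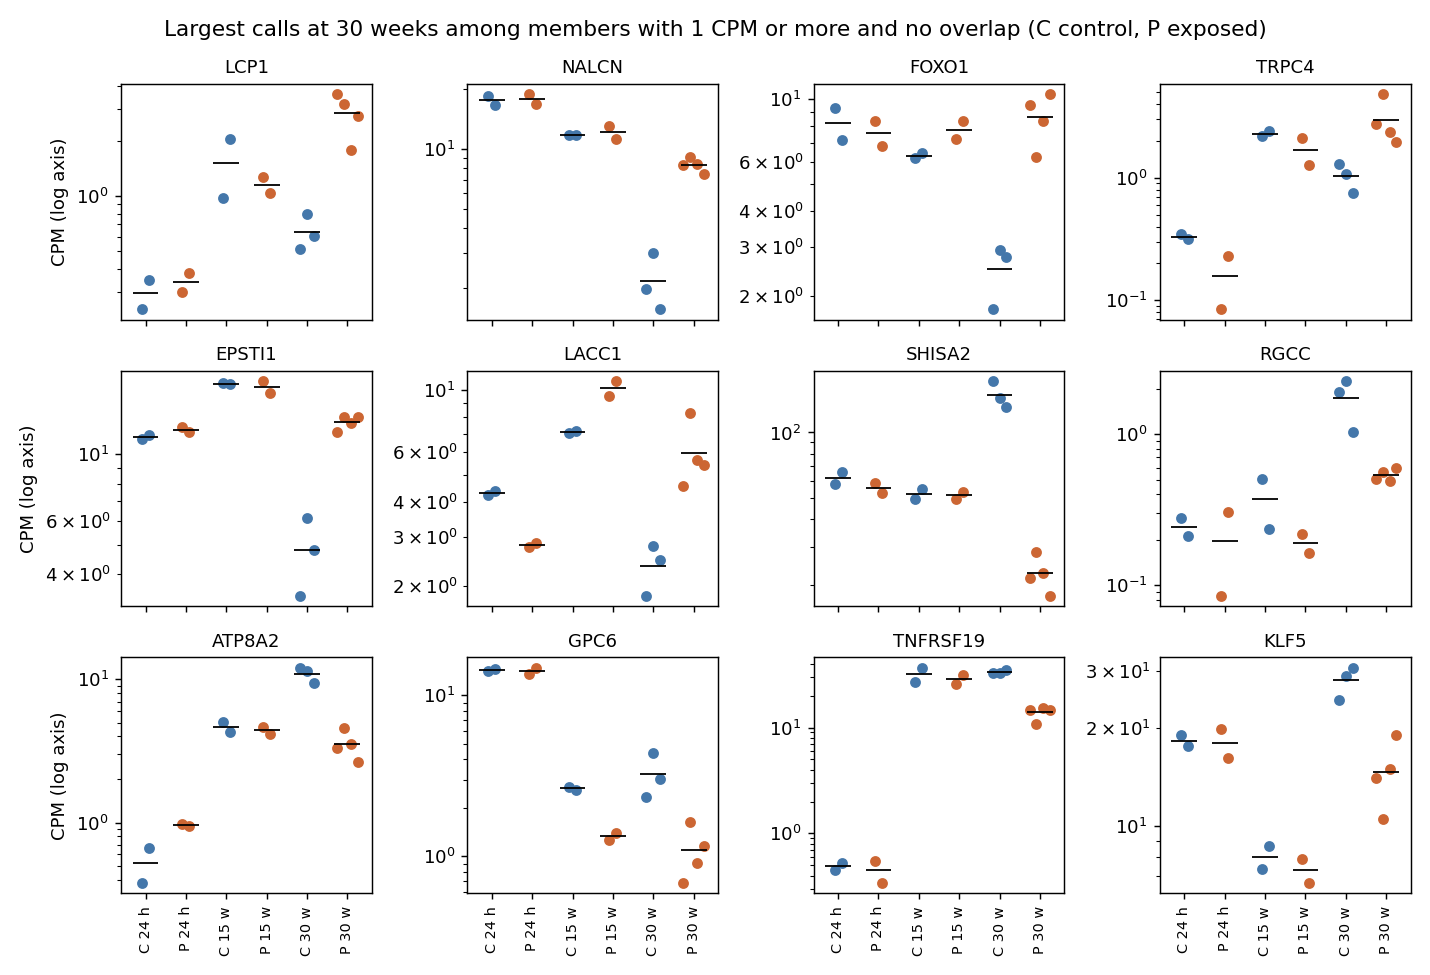
Each panel is 1 of the 12 members with the largest called changes at 30 weeks, 6 in each direction, among those with at least 1 CPM on average and no overlap of the groups; points are samples (blue, control; orange, exposed), bars are group means, and CPM is on a log axis that differs between panels. In the first 6 panels the 30-week controls are the low group of that time point, and in SHISA2 they reach 131 to 172 CPM against 17.9 to 28.4 CPM in exposed cells.

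The promoters of these genes were compared by sequence to describe what letters they share. RefSeq promoters (GRCh38.p14, the 250 bases before the 1 start site that the table gives for a gene) were matched for 202 of 226 members. The coordinates of a gene cover all its transcripts, and this window lay before them in 164 members, inside them in 35 and across their edge in 3. NALCN is one of the 35: its start site in the table is 671 bases inside the gene's coordinates, so that the window shown lies within them. The GC box GGGCGG, sought on both strands, was in 60.9% of the members' promoters, 65.9% of those of other protein-coding genes tested and 42.3% of all RefSeq promoters. TATAAA was in 7.92%, 6.03% and 11.1%, and CCAAT in 33.2%, 34.9% and 33.0%, and these motifs may lie in the same promoter. The members' promoters had a median GC content of 66.0%, against 64.8% in other protein-coding genes tested. Below are 2 promoters of genes that rose and 2 of genes that fell at 30 weeks, in gene direction, with GC boxes in capitals: NALCN and SHISA2 had the smallest adjusted p in either direction, and FOXO1 and KLF5 are the transcription factors among the 12 genes just described. They are NALCN (chr13:101416509-101416758, minus strand), FOXO1 (chr13:40666642-40666891, minus strand), SHISA2 (chr13:26052017-26052266, minus strand) and KLF5 (chr13:73054726-73054975, plus strand).
NALCN: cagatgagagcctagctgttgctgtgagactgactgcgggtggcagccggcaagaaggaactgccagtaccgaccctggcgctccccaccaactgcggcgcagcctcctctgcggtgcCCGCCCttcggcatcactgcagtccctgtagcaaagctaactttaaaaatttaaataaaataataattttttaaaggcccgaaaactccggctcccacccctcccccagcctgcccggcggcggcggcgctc
FOXO1: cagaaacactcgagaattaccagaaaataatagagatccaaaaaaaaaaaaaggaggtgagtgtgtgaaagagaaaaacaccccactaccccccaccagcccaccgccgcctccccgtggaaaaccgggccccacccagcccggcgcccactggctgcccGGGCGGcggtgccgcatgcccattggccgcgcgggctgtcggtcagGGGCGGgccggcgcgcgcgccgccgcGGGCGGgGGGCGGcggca
SHISA2: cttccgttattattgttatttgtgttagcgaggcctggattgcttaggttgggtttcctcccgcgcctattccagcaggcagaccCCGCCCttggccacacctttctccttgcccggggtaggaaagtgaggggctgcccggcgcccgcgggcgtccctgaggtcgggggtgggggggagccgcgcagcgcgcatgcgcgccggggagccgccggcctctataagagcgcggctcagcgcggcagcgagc
KLF5: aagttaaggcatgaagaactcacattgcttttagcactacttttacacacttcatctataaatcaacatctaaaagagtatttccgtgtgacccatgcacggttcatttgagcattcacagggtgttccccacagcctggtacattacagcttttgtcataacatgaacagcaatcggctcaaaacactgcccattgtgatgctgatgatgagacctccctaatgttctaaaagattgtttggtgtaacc
FOXO1 had 4 matches to the GC box, NALCN and SHISA2 had 1 each, and KLF5 had 0 in this window. A match is a run of letters and no measurement of binding.

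Along the chromosome, the median difference at 30 weeks was positive in 8 windows of 10 Mb that held at least 17 members each. The median log2 fold change of exposed against control cells was 0.24 for the 41 members that start between 20 and 30 Mb, 0.37 for 29 members from 30 to 40 Mb, 0.39 for 49 members from 40 to 50 Mb and 0.41 for 17 members from 50 to 60 Mb. It was 0.29 for 18 members from 70 to 80 Mb, 0.32 for 20 members from 90 to 100 Mb, 0.57 for 18 members from 100 to 110 Mb and 0.43 for 26 members from 110 to 120 Mb. These 8 stayed positive with each 30-week sample left out in turn, and the lowest value of any was 0.12. The 3 windows with fewer members differed among themselves: the median was 0.25 for 4 members from 10 to 20 Mb, -1.08 for TDRD3 and PCDH9 from 60 to 70 Mb and -0.43 for SPRY2 and SLITRK5 from 80 to 90 Mb.

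**Figure D4:**
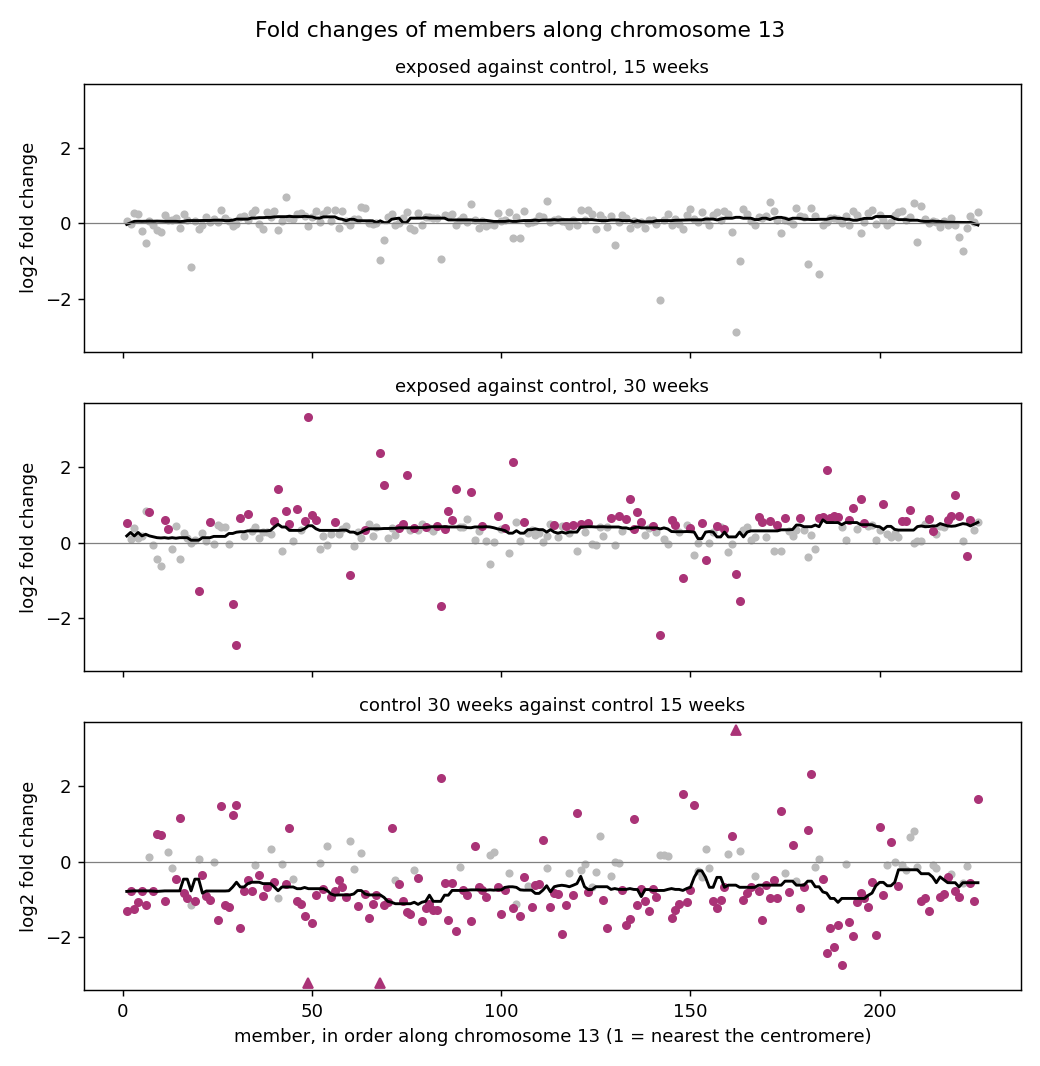
Members are placed in their order along chromosome 13, from the centromere to the far end, at their log2 fold change in 3 comparisons; purple points were called by edgeR (adjusted p under 0.05), triangles lie beyond the axis, and the line is the running median of 21 members. At 15 weeks the line stays close to 0, at 30 weeks it lies above 0 along the whole chromosome, and from 15-week to 30-week controls it lies below 0 and comes nearest to 0 toward the far end.

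The members also changed with time in culture. From 24 h to 15 weeks, controls had a median log2 fold change of 0.20 over the members (quartiles 0.00 and 0.47); 44 members (19.5%) rose and 12 (5.31%) fell, beside 12.7% and 12.2% of all genes. In exposed cells the same step had a median of 0.39, with 69 (30.5%) that rose and 11 (4.87%) that fell, beside 13.5% and 12.5% of all genes. Between controls, the largest called rises among members with at least 1 CPM on average in the samples compared were in TNFRSF19, ATP8A2 and TRPC4; below that level, ZIC2, LRRC63 and FLT1 had larger fold changes than ATP8A2, from 0 to 1 counts in the 24 h controls. TNFRSF19 went from 0.45 and 0.525 CPM to 27 and 36.4 CPM, 64.5-fold (log2 6.01, SE 0.275, adjusted p = 5.43e-10 by edgeR), and from 0.553 and 0.343 CPM to 25.6 and 31.3 CPM in exposed cells. ATP8A2 went from 0.381 and 0.665 CPM to 5.02 and 4.28 CPM in the controls (log2 3.14, SE 0.311, adjusted p = 2.27e-06 by edgeR). TRPC4 went from 0.346 and 0.315 CPM to 2.18 and 2.42 CPM. At the same level, EFNB2, GPC6 and PCDH9 fell most. EFNB2 went from 12.1 and 11.9 CPM to 2.75 and 1.59 CPM (log2 -2.47, SE 0.285, adjusted p = 1.08e-05 by edgeR), GPC6 fell to 0.184 and PCDH9 to 0.245 of the 24 h level. By window, the members' median from 24 h to 15-week controls was 0.37 from 20 to 30 Mb and 0.36 from 110 to 120 Mb, and 0.05 from 50 to 60 Mb.

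From 15 to 30 weeks, a step that also crosses the batches, most members lay lower in the controls. The median log2 fold change was -0.73 (quartiles -1.07 and -0.13), or 0.602-fold; 24 members (10.6%) rose and 141 (62.4%) fell, beside 25.6% and 24.6% of all genes. In exposed cells the median was -0.42, with 28 (12.4%) that rose and 107 (47.3%) that fell, beside 23.3% and 22.7% of all genes. Beside genes of like GC content these medians were -0.32 and -0.09. In each control sample at 30 weeks the median of the members lay below that of each control at 15 weeks. Of the 20 members of cell division and genome maintenance, 16 fell, none rose and 4 were not called. Among members with at least 1 CPM on average in these samples, the largest called rises were in SLITRK5, RGCC and KLF5. SLITRK5, a transmembrane protein of neurites, went from 0.253 and 0.501 CPM to 7.57, 6.86 and 9.56 CPM (log2 4.38, SE 0.438, adjusted p = 1.73e-06 by edgeR), and KLF5 from 7.36 and 8.67 CPM to 24.5, 29.1 and 30.6 CPM. The largest falls at that level were in LRTM3, NALCN and FGF14, while MEDAG and POSTN, both below it, had larger ones (log2 -3.72 and -3.23). FGF14 went from 9.89 and 9.65 CPM to 1.98, 1.88 and 2.22 CPM (log2 -2.27, SE 0.167, adjusted p = 1.1e-07 by edgeR), and NALCN fell to 0.187 of the 15-week level.

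NALCN, FGF14 and LRTM3 are neighbours, and a run of genes around them moved in the same direction. The 8 members that start between NALCN at chr13:101053776-101417179 and BIVM at chr13:102799119-102841533 were looked at together after their values had been seen. From 15-week to 30-week controls their log2 fold changes were -2.42 in NALCN, -1.74 in ITGBL1, -2.27 in FGF14, -1.67 in TPP2, -2.74 in LRTM3, -0.06 in TEX30, -1.59 in POGLUT2 and -1.98 in BIVM. TEX30 was the 1 gene of the run that hardly differed. In this step, which also crosses the batches, 183 of all 226 members were not positive and their median was -0.73. A shared direction is thus what most members had. The whole window from 100 to 110 Mb had the lowest median of the 8 larger windows in that step, -1.13, and the highest in the 30-week exposure comparison, 0.57. The window from 110 to 120 Mb, by contrast, was at -0.36 in the controls and at 0.15 in exposed cells, the only 1 of the 8 with a positive median in exposed cells. In that window lie TFDP1, LAMP1, CUL4A, SLC9D1 and GAS6.

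Placed among the chromosomes, chromosome 13 was second highest of 23 in the 30-week exposure comparison, after chromosome 21 with a median of 0.62, and the lowest was chromosome 4 with -0.33. It was also second highest at 15 weeks, where chromosome 21 had 0.23. From 15-week to 30-week controls it was the lowest of all, followed by chromosome 21 with -0.37. With the median of genes of like GC content subtracted, as described below, chromosome 13 stayed second highest at 30 weeks (0.25, against 0.57 for chromosome 21 and -0.42 for chromosome 4), came after chromosomes 21 (0.23) and 9 (0.04) at 15 weeks (0.04) and became second lowest between the controls (-0.30, after chromosome 21 with -0.35). Before this subtraction, chromosome 4 (-0.33) was about as far below 0 at 30 weeks as chromosome 13 (0.35) was above it, and after it chromosome 4 was farther from 0. For chromosome 21, the median difference from the 24 h controls was -0.03 to 0.01 in the 30-week controls and 0.47 to 0.57 in exposed cells, so that replicate 2 did not stand apart there. These ranks are descriptions, and the medians of the autosomes and the X chromosome come from genes that share the same libraries.

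The members differ from other genes in base composition. The longest transcripts of 221 members had a median GC content of 41.8% and a median length of 4592 bases, against 48.3% and 3845 bases in other protein-coding genes tested. Between 15-week and 30-week controls, other protein-coding genes had medians of -0.52, 0.07 and 0.40 in the tertiles of low, middle and high GC content, and the members had -0.88, -0.33 and -0.08. In the 30-week exposure comparison, other genes had 0.10, 0.08 and -0.12 and the members 0.36, 0.37 and 0.20. The members were thus above other genes of like GC content in each tertile of the exposure comparison, and below them in each tertile of the step between the controls. With the median of other genes of like GC content subtracted in 20 bins, the members' median at 30 weeks was 0.26 and 78.7% were positive. That of the step between the controls was -0.32 in place of -0.73, so that base composition moved with a large part of it, and that of exposed cells from 15 to 30 weeks was -0.09 in place of -0.42. From 24 h to 15 weeks the control median was 0.30 after the subtraction.

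The exposure effects at 15 and 30 weeks, which share no samples, were compared gene by gene. Across the 226 members Pearson's r was 0.27 and Spearman's rho 0.19, given as a description since genes share libraries and are no replicates. Over all genes tested Pearson's r was 0.23, so that the value of the members was close to it. Of the members, 141 were positive at both times and 22 negative at both. The sign was the same in 72.1% of members and 60.9% of all genes. The difference between both effects was tested in the same edgeR model: 14 members (beside 2.66% of all genes) had a higher and 3 (beside 2.08%) a lower effect at 30 weeks. The chromosome was selected with its 30-week change known, and that change enters this difference, so that these counts are a description. The 14 were EPSTI1, FOXO1, GAS6, GGACT, KATNAL1, LCP1, MEDAG, NALCN, NEK3, POSTN, RAB20, TMEM255B, TRPC4 and VPS36, and the 3 were ATP8A2, SHISA2 and TNFRSF19. The effects of PCDH9 and GPC6, which fell at 30 weeks and had the same sign at 15 weeks, were not shown to differ between the time points.

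Some counts are less certain than others. The sources used here do not state how reads that fit several places or overlapping genes were counted, nor the strand setting of the counter, although the kit keeps the strand. HMGB1 and TPT1 have many near-identical processed copies in the genome, PABPC3 and HNRNPA1L2 are themselves such copies of genes on other chromosomes, UTP14C overlaps ALG11, and BIVM and ERCC5 share read-through transcripts. Besides the members, 65 noncoding genes of chromosome 13 were tested. Their median log2 fold change was 0.09 at 30 weeks, 0.20 at 15 weeks, and -0.28 from 15-week to 30-week controls. At 30 weeks 3 of them rose and 2 fell, beside 12% and 11.7% of all genes.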

How the data were processed

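RNA of BEAS-2B cells was sequenced in 15 samples of 6 groups (control and exposed cells at 24 h, 15 weeks and 30 weeks), grouped by their labels. Read filtering by the authors used Rfastp, and mapping to GRCh38 and counting per gene used Rsubread with featureCounts; bcl2fastq and hg38 are named in the submitters' processing notes. The deposited values are these raw counts, without normalization, for 28395 Entrez gene numbers, of which 27745 carried a symbol. Depth was 23143202 to 31459990 counts per sample, so that 1 CPM was 23.1 to 31.5 counts before scaling.

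Here, edgeR 4.0.16 in R 4.3.3 was run with filterByExpr on the 6 groups (16740 genes left), TMM scaling and a quasi-likelihood fit to all 15 samples (1 mean per group). Adjustment was after Benjamini and Hochberg across these genes, and the threshold was 0.05. Differences per sample used log2 CPM with a prior count of 2. Gene positions, promoters and classes came from RefSeq (GRCh38.p14), transcript length and GC content from GENCODE, with 97.8% of the members matched. The procedure was tested on simulated data.

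The members, the 7 role lists and the rules were chosen with earlier results of these data known. Genes named were, in each role list, the 3 members with the highest mean CPM; the 6 largest calls in each direction at 30 weeks with an average CPM of 1 or more whose groups did not overlap; and the 3 largest calls in each direction between controls of successive times, with the same minimum over the samples compared. Others are named to fill a list's count. Markers were 14 of bronchial epithelium, 8 of mesenchyme (1480 to 2550 summed CPM in the controls), 14 of skeletal muscle, 5 of blood and 3 of endothelium. Alternatives were DESeq2 1.42.0, limma-voom (limma 3.58.1) without and with 2 surrogate variables (sva 3.50.0), each time point on its own, all genes without a filter, a minimum of 10 counts throughout, scaling by the upper quartile, 6 small noncoding RNAs left out, libraries thinned to the smallest total, a threshold of 0.01, the replicate number as a block, members with 10 counts in all samples, the median of all genes subtracted, and each replicate left out. The subtraction by GC content, the test of the difference between the 30-week and 15-week effects and the run of genes around NALCN were added after seeing the data. Some genes of the chromosome, at least 1 of them picked by the rule for named genes, are not reported here by name, and no other gene took their place.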

Additional observations from a re-analysis of the deposited data

Results flagged for a closer look

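Among the 4 exposed samples at 30 weeks, replicate 2 lay far from the others in the median of the members, at 0.083 on the log2 scale against -0.24 to -0.19. It did so in TM9SF2 too, at 293.4 CPM against 183 to 197 CPM, whereas in CUL4A replicate 4 was the sample apart, at 122.9 CPM against 140.3 to 143 CPM. Each gap exceeded the critical value of Dixon's ratio for 4 samples, and of 38 values examined about 1 in 20 would do so by chance.

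The effect of exposure differed between 30 and 15 weeks in 9 of the named members, by edgeR's test of the difference itself, adjusted over all genes. It was greater at 30 weeks in LCP1, by 2.51 on the log2 scale (adjusted p = 0.00762), TRPC4, by 1.96 (0.0418), NALCN, by 1.87 (0.000661), FOXO1, by 1.48 (0.0134), EPSTI1, by 1.44 (0.00243), and GAS6, by 1.07 (0.00438). It was lower by a difference of -2.69 in SHISA2 (adjusted p = 6.31e-06), -1.55 in ATP8A2 (0.0067) and -1.11 in TNFRSF19 (0.0125). The 30-week samples are batch 2 and the 15-week samples batch 1, and time and batch cannot be told apart in these differences. All of these genes but GAS6 were named by a rule that took the largest called changes at 30 weeks without overlap between exposed samples and controls. Neither the size of their 30-week effect nor their lack of overlap is therefore support for these differences. GAS6, named for its level, did not overlap at 30 weeks either.

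The median of the members was below the mean of the controls in both exposed samples at 24 h, by -0.03 and -0.02, and above it in both at 15 weeks, by 0.12 and 0.11, on average 0.1164. It was above it by 0.22 to 0.54 in all 4 exposed samples at 30 weeks, 0.3175 above the controls on average. These opposite directions were not tested.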

How the results depend on the processing

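In all 7 comparisons the members' median kept its direction under every alternative run. With the median of other genes of like GC content subtracted, chosen after seeing the data, it was 0.042 for exposed against control cells at 15 weeks, 0.303 for 15-week against 24 h controls, 0.376 for the same step in exposed cells, -0.321 for 30-week against 15-week controls and -0.089 for that step in exposed cells. Upper-quartile scaling gave 0.271 for 15-week against 24 h controls and 0.443 in exposed cells, where replicates differed little and 0.37 in DESeq2, 0.366 with 10 counts in every sample, 0.358 in thinned counts and 0.358 over members with 10 counts in all samples also exceeded their spread. The numbers called were 1 at 15 weeks in DESeq2 and 9 with each time point fitted alone, beside 0.122% and 1.96% of all genes. At 30 weeks 45 rose with each time point alone, beside 7.41% of all genes. There 48 rose and 7 fell at an adjusted p under 0.01, and 7 fell among members with 10 counts in all samples. For the steps in time, surrogate variables left 26 calls from 24 h to 15-week controls and 81 from 15-week to 30-week controls. Calls over all genes were then 1271 and 3338 of 16740. An adjusted p under 0.01 left 32 calls in controls and 43 in exposed cells from 24 h to 15 weeks. The share of all genes at 0.01 was not counted. Where the cause of a difference is not the setting itself (a stricter threshold or fewer genes), it was not tested.

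With each replicate left out, the 15-week median ran from 0.062 (without exposed replicate 1) to 0.128 (without control replicate 1). At 30 weeks 52 (without control replicate 1) to 88 members rose and 8 to 19 (without exposed replicate 2) fell. From 24 h to 15 weeks, calls ran from 30 (without 15-week control replicate 2) to 79 (without exposed replicate 2 of 30 weeks) in controls, and in exposed cells from 39 (without 24 h replicate 2) to 107 (without exposed replicate 2 of 30 weeks), with medians of 0.351 to 0.401. A group left with 1 sample is assumed to vary like the others. Calls over all genes moved as well: from 24 h to 15 weeks they were 4174 in controls and 4349 in exposed cells in the main fit. Without exposed replicate 2 of 30 weeks they were 5572 and 5720. In the fits with the fewest member calls, each of which leaves 1 sample in a group, calls over all genes were also well below the main fit. The lower numbers there were thus not particular to the members.

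TPT1, not called at 30 weeks, turned negative in limma-voom (-0.05), each time point fitted alone (-0.004), with 10 counts in every sample (-0.007), upper-quartile scaling (-0.03) and thinned counts (-0.001), and ran from -0.256 to 0.145 with replicates left out. Among called genes, none turned. CKAP2, IPO5, MBNL2 and SLITRK5 lost their call without control replicate 1 of 30 weeks, as LAMP1 and MYCBP2 did there and under many settings; IPO5, MBNL2 and SLITRK5 lost it without control replicate 3 and SLITRK5 without exposed replicate 3. SAP18 was called lower without exposed replicate 2 (log2 -0.51), and MRPL57 without that sample, without control replicate 3 or under upper-quartile scaling.

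Deviations of same-numbered samples of control and exposed groups had correlations of -0.06 at 24 h, 0.03 at 15 weeks, and -0.12, 0.30 and 0.10 at 30 weeks. With 2 samples a group, the value is the same for both numbers. Low correlations cannot exclude that same-numbered samples were handled together, and whether the numbers pair the samples is not known. With the replicate number as a block, the median at 30 weeks was 0.351, and 72 members rose and 9 fell, beside 3190 calls over all genes. At 24 h and 15 weeks 0 were called, and LAMP1 and MYCBP2 were not called at 30 weeks. At the depth of these libraries, members near 1 CPM rest on 23.1 to 31.5 counts before scaling, and small differences in them could not be detected.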
